A study of Mus musculus with 4 samples.

Results

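The 90 genes described here encode subunits of the 5 complexes of the mitochondrial respiratory chain. They were chosen by symbol alone from the 32290 features of each deposited table. The rule used no measured value, although it was set with earlier results of these data known. The nuclear genome encodes 77 of them and the mitochondrial genome 13. Complex I holds 43 (36 nuclear), complex II 4 (all nuclear), complex III 10 (9 nuclear), complex IV 14 (11 nuclear) and complex V 19 (17 nuclear). A few genes that are often listed with these complexes, such as Ndufab1 and cytochrome c (Cycs), do not match the symbol rule and were read as partners instead.

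Complexes I and II take electrons from NADH and succinate and pass them to ubiquinone, complex III passes them on to cytochrome c, and complex IV hands them to oxygen. Complexes I, III and IV pump protons as they do so, and complex V, the ATP synthase, makes ATP as the protons flow back. Complexes I, III, IV and V are each assembled from nuclear and mitochondrial products, so their subunits come from separate genomes, whereas complex II is wholly nuclear. The mitochondrial transcripts are cut from long precursors and lie head to tail on a small circle of DNA.

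Single-cell RNA sequencing was run on mixed primary cells of mouse adipose tissue, from subcutaneous (SC) and intraperitoneal (IP) depots of WT and KO mice. Each of the 4 groups had 1 library. WT mice were Tie2e-cre; TERT+/+; mTmG and KO mice were Tie2e-cre; TERT fl/fl; mTmG, so the Cre driver and the membrane reporter were shared by all groups. The mice were 7 months old after 5 months of high-fat diet. Tie2 drives Cre in endothelium (and, in many lines, in part of the blood lineage), and the gene removed is Tert, the catalytic subunit of telomerase. The labels give neither the number of mice in a library nor whether SC and IP came from the same animals, and they speak of nuclei as well as of cells in describing what was loaded. No class of vascular endothelial cells was large enough to compare in all libraries, so the classes below are ones the deletion was not directed at. With 1 library per group, no difference of genotype or depot has a replicate error, and intervals around them cover counting error only.

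The libraries held 10015201 to 15533961 UMIs (unique molecules), and 518 to 1955 cells per library passed the filters, with a median depth of 6706 to 13047 UMIs. Tert itself had 2 to 9 UMIs in a library, too few to check the deletion. A total of 93 cell barcodes occurred in both KO SC and WT IP, against 0 or 1 for every other pair of libraries. Their KO SC copies were shallow, with a median of 601 UMIs, and in the median 99.3% of those UMIs were also in the WT IP profile of the same barcode. They made up 8 of the 26 macrophage cells of KO SC, 1 of its T cells and 1 of its NK cells, but only 2.48% of the macrophage UMIs and less of the other classes. The class test and the ratio of mitochondrial to nuclear members were therefore also computed without them. The number of members called in a class then changed by 2 at most. Other KO SC values were not recomputed.

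Cells were clustered without the 90 genes, and 5 classes had at least 20 cells in every library. In the order WT SC, KO SC, WT IP and KO IP, there were 433, 1108, 66 and 88 T-like cells, 307, 477, 22 and 25 B-like cells, and 31, 24, 74 and 26 NK-like cells. There were 26, 26, 131 and 49 macrophage-like cells and 67, 98, 223 and 160 cells like adipose stromal cells (ASC), the fibroblast-like progenitors of the tissue. All 7 markers of T, B and NK cells and all 9 of ASC were detected in their own class in every library. Macrophage markers were thinner in SC, at 234 CPM in WT and 1007 CPM in KO, than in IP, at 3146 and 2805 CPM, with 7 of 8 detected in each SC library. In SC they were below the markers of dendritic cells, at 885 CPM in WT and 1201 CPM in KO. Markers of monocytes were also above them, at 1212 and 1589 CPM, and T markers reached 255 CPM in WT. The SC cells of this single cluster thus go against its name, which came from 7 of 8 macrophage markers detected over all 4 libraries. In IP, markers of dendritic cells summed to 478 and 757 CPM and those of monocytes to 1343 and 1497 CPM. CPM is the UMIs of a gene per 1000000 UMIs of the class in that library. T cells of SC lay mostly in clusters led by naive genes, whereas clusters led by Il17a and Il17f held 12 and 15 of the 66 cells of WT IP and 35 and 32 of the 88 of KO IP. ASC of IP were all in 1 cluster, which held 21 and 25 of the ASC of WT and KO SC. The rest of the SC cells, 46 and 73, formed a cluster of their own. Some clusters were left unnamed and entered no class. The largest held 233 shallow cells closest to ASC (32, 112, 47 and 42 in the same library order). Another held 203 cells led by Gzmk and Ccl5 and closest to T cells (40, 78, 49 and 36). The T and ASC classes may thus not hold all such cells.

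The mitochondrial members mt-Atp8 and mt-Atp6, both of complex V, overlap on the plus strand at chrM:7927-7969 (GRCm38). Their shared stretch of 43 bases is shown because a read that lies wholly inside it matches both genes. How many reads do so was not measured. The capitals mark the start codon of mt-Atp6 and the stop codon of mt-Atp8.
mt-Atp8 and mt-Atp6 overlap: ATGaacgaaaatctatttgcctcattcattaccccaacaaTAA

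For nuclear members, 63 of 77 had a promoter window in RefSeq (GRCm38.p6, 250 bases before to 50 after the start). The letters of the NRF1 motif, GCGCA and GCGC with any 1 base between them on either strand, were found for 17 of the 63 genes (27.0%). They were found for 5.19% of all 27025 genes with a window. NRF1 is a transcription factor known for its sites in genes of respiratory subunits. The Ets letters CCGGAAG were also found for 17 (27.0%), against 9.93% of all, and the YY1 letters AAGATGGC for 9 (14.3%), of which 7 belonged to complex I, against 3.19% of all. A gene was counted for each motif that any of its windows held, on either strand. A gene with more windows thus had more chances to be counted. The sites of the complex I genes Ndufa5 and Ndufs5, which stood out in ASC below, and of Sdha, which held 3 copies, are shown with the NRF1 letters in capitals. All are on the minus strand, at chr6:24527697-24527726, chr4:123718265-123718294, chr13:74350319-74350348, chr13:74350276-74350305 and chr13:74350231-74350260.
Ndufa5: tgtgtgagctGCGCAGGCGCaaatctacct
Ndufs5: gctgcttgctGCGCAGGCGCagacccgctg
Sdha, site farthest from the start: cgtttacaggGCGCAGGCGCaccaccactc
Sdha, middle site: ggggcgtgttGCGCAGGCGCagaatcttcc
Sdha, site nearest the start: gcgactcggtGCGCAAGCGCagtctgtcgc

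By the call in ASC given below, the NRF1 letters were found for 5 of 17 members that were higher there (29.4%), 3 of 10 of those lower (30%) and 9 of 36 of those that passed in neither direction (25%). The promoter stretches upstream of exons of a member higher in ASC (Ndufs5, chr4:123718203-123718436, minus strand) and of a pair lower there (Cox5a, chr9:57520982-57521231, plus strand, and Uqcrfs1, chr13:30545363-30545566, minus strand) are printed for comparison, again with the NRF1 letters in capitals. Those of Cox5a and Uqcrfs1 held no match in the stretch shown.
Ndufs5: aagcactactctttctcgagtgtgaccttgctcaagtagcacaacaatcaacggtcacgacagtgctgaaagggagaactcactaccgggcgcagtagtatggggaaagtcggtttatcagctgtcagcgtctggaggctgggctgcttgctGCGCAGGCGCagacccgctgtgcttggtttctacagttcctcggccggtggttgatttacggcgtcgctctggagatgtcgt
Cox5a: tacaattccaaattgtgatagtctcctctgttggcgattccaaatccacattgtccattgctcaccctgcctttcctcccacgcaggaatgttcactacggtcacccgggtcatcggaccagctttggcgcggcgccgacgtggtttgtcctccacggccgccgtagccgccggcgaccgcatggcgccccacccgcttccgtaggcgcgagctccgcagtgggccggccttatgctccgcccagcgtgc
Uqcrfs1: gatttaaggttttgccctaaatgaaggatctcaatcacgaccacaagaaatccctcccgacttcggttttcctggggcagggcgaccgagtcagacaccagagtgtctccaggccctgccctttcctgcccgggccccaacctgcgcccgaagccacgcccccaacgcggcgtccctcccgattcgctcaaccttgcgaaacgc

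The question for the cell classes was which subunits differ between the cells of the tissue. UMIs were summed per class and library, and each class was compared with the mean of the other 4 in edgeR's quasi-likelihood test with the library as a block and Benjamini-Hochberg adjustment over 9813 genes. All 90 members passed the low-count filter. B cells had 12 members higher and 26 lower, against 17.8% and 19.1% of all genes tested. ASC had 21 higher and 15 lower (38.1% and 25.5% of all genes), macrophages 14 higher and 0 lower (20.8% and 10.9%), NK cells 4 higher and 8 lower (13.2% and 9.13%) and T cells 4 higher and 2 lower (16.7% and 11.7%). The members' shares were not tested against those of all genes, and the members are described below by genome and complex.

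**Figure D1:**
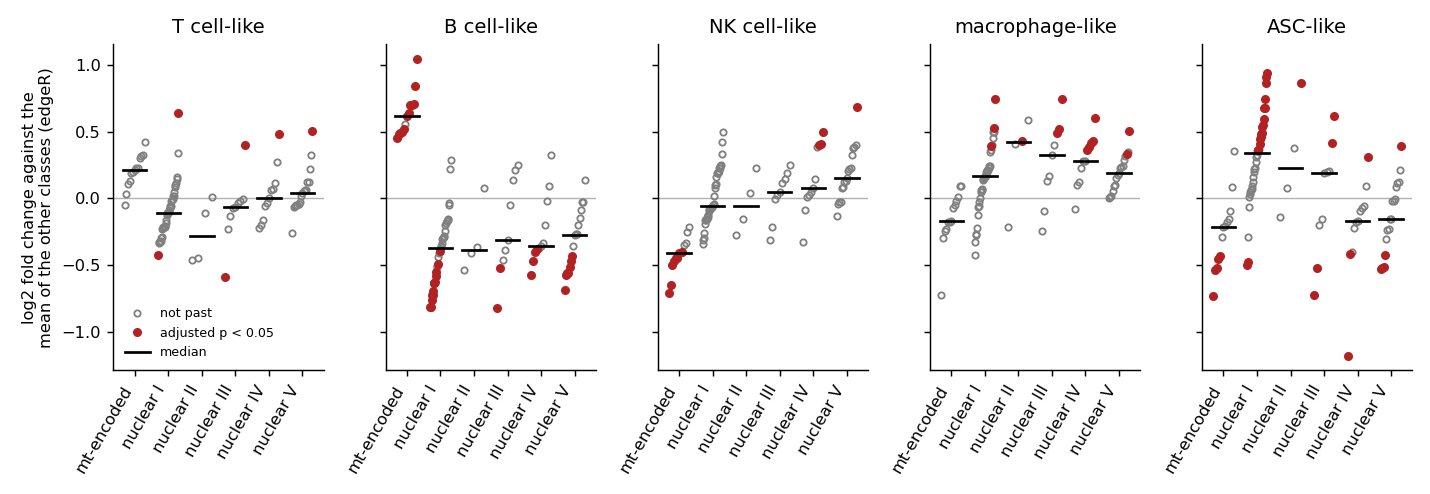
Log2 fold change of each of the 90 members in each class against the mean of the other 4 (vertical axis, log2), with the mitochondrial members together and the nuclear members by complex on the horizontal axis; bars are medians and filled points passed edgeR's quasi-likelihood test at an adjusted p under 0.05. The mitochondrial members sit above 0 in B cells (median 0.62) and below 0 in NK cells (median -0.41), and nuclear members of complex I sit above 0 in ASC (median 0.34).

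In B cells the genomes went in opposite directions. Of the 13 mitochondrial members 12 were higher, with a median log2 fold change of 0.62, and of the 77 nuclear members 26 were lower, with a median of -0.36, against -0.09 over all genes. Among all genes tested, 17.8% were higher and 19.1% lower in B cells. The mt-Nd5 transcript, which encodes a proton-pumping subunit of complex I, reached 628 and 628 CPM in SC (WT, then KO) and 773 and 603 CPM in IP, whereas the other 16 sums of class and library lay between 196 and 451 CPM. Its groups thus did not overlap, and its log2 fold change was 1.05 ± 0.14 (SE, n = 4 libraries; edgeR adjusted p = 1.3e-05). The mt-Nd4 transcript, another complex I subunit, was also above every other sum, at 2178, 2256, 2236 and 2207 CPM in the same order. These were the only members above all others in B cells, where 2.51% of 10575 genes were. In T cells and macrophages no member was, against 0.804% and 2.71% of genes. Cytochrome b, the mitochondrial subunit of complex III, rose by 0.84 ± 0.15 (edgeR adjusted p = 0.00022), mt-Nd2 by 0.71, mt-Atp6 by 0.70 and mt-Nd1 by 0.50 ± 0.11 on the log2 scale. The mitochondrial member that did not pass in B cells was mt-Nd6, a subunit of complex I encoded on the other strand, at 0.56 ± 0.32 (edgeR adjusted p = 0.18).

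In B cells 19.1% of all genes were lower. The nuclear members that fell came from complex I (13 of 36), III (2 of 9), IV (4 of 11) and V (7 of 17), with none of the 4 from complex II. The lowest were Uqcr11, a small subunit of complex III (log2 fold change -0.82 ± 0.15, edgeR adjusted p = 0.00027), and the complex I subunits Ndufa5 (-0.82 ± 0.21), Ndufv3 (-0.82 ± 0.21) and Ndufa8 (-0.76 ± 0.16). Ndufa5 had 35.2 and 44.7 CPM in WT and KO SC and 32.2 and 46.4 CPM in WT and KO IP. Cox6c of complex IV and Atp5j of complex V were lower in each B library than in every other sum, as were 2.23% of all genes. The mitochondrial calls numbered 10 with any library left out, but the number of nuclear members lower went to 9 without WT IP or WT SC, 13 without KO IP and 19 without KO SC. B cells of IP numbered only 22 and 25.

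In ASC the medians differed by complex, and this difference was not tested. Of the 36 nuclear members of complex I, 16 were higher and 2 lower, beside 38.1% and 25.5% of all genes tested. Their median was 0.34, against 0.13 over all genes. Complex IV had 1 higher and 2 lower of 11 (median -0.17) and complex V 1 higher and 4 lower of 17 (median -0.15). Complexes II and III had 1 higher and 0 lower of 4 and 2 in each direction of 9. The mitochondrial members gave 5 lower and 0 higher, with a median of -0.21. Leaving out 1 library lowered the complex I count to 5 (without KO IP), 8 (WT SC) or 10 (KO SC or WT IP), with 1 or 2 lower in each case. The mitochondrial count became 8 lower without KO IP and 5 without any other library. Smooth muscle (SMC) markers, with 6 or 7 of 7 detected, summed to 32.6 to 253 CPM in ASC, and mesothelial markers, with 2 to 4 of 6 detected, to 13.5 to 248 CPM, and their part in the result was not tested.

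The complex I genes that rose most in ASC were Ndufa5, an accessory subunit of the arm that enters the matrix, Ndufs5 and Ndufb9. Ndufa5 stood at 87.7, 91.0, 109 and 104 CPM in WT SC, KO SC, WT IP and KO IP, against 32.2 to 71.5 CPM in T cells, B cells and macrophages and 49.4 to 108 CPM in NK cells, with which it overlapped. Its log2 fold change was 0.94 ± 0.16 (edgeR adjusted p = 4e-05). Ndufs5 had 108, 96.6, 149 and 118 CPM, overlapping macrophages of KO SC, T cells of KO IP and NK cells of WT IP, at 0.91 ± 0.16 (adjusted p = 5.4e-05). Ndufb9 had 139, 130, 194 and 167 CPM, at 0.87 ± 0.14 (adjusted p = 2.5e-05). Sdhc, the membrane anchor of complex II, also rose, by 0.87 ± 0.22 (adjusted p = 0.0021). No member was above all other sums in every ASC library, where 15.4% of all genes were.

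The member that fell most in ASC was Cox5a, a nuclear subunit of complex IV. It had 84.1, 95.3, 119 and 86.5 CPM in the 4 libraries, below the 194 to 401 CPM of every other class and library, and its log2 fold change was -1.18 ± 0.16 (edgeR adjusted p = 2.9e-06). The groups did not overlap. Next were mt-Nd5 (-0.73 ± 0.16), the Rieske iron-sulfur protein Uqcrfs1 of complex III (-0.72 ± 0.16) and mt-Co3 of complex IV (-0.54 ± 0.13). The members below every other sum were the 6 genes mt-Co1, mt-Nd5, Cox5a, Atp5d, Ndufa6 and Atp5g2, against 6.98% of all genes. The mt-Co1 transcript, the catalytic core of complex IV, had 3166 to 3994 CPM in ASC and 4120 to 7359 CPM elsewhere.

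**Figure D2:**
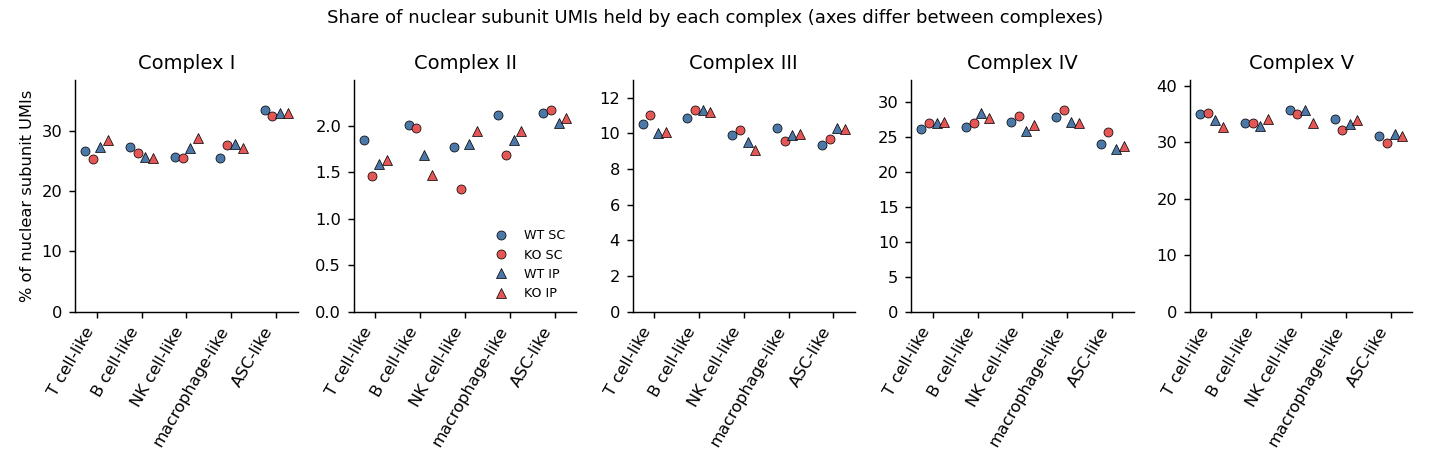
Share of the nuclear members' UMIs that fell in complexes I to V (vertical axis, percent of nuclear member UMIs) for each class, with 1 point per library. Complex I took 32.5 to 33.5% in the 4 ASC libraries and 25.4 to 28.8% in the other 16 sums.

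As a share of the nuclear members' UMIs, complex I took 33.5, 32.5, 33.0 and 32.9% in ASC of WT SC, KO SC, WT IP and KO IP, and 25.4 to 28.8% in the other classes. Complex IV took 24.0, 25.7, 23.2 and 23.7% in ASC and 25.8 to 28.8% elsewhere. Complex V took 29.95 to 31.5% in ASC and 32.3 to 35.7% elsewhere. The ASC shares of complexes I, IV and V thus did not meet those of any other class, but for IV and V the gaps were small. For complex IV the nearest were 25.65% in ASC of KO SC and 25.8% in NK cells of WT IP. For complex V they were 31.49% in ASC of WT IP and 32.25% in macrophages of KO SC. No counting intervals were computed for these shares. Complex III, at 9.05 to 11.3%, and complex II, at 1.32 to 2.17%, overlapped.

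In NK cells 13.2% of all genes were higher and 9.13% lower. Of 13 mitochondrial members 8 were lower (median -0.41), and 4 nuclear members were higher, of complexes IV (3) and V (1). The nuclear gene that rose most was Atp5h, a subunit of the stalk that holds the ATP synthase still. It had 680, 605, 570 and 638 CPM in NK cells of WT SC, KO SC, WT IP and KO IP and 212 to 547 CPM elsewhere, a log2 fold change of 0.69 ± 0.12 (edgeR adjusted p = 0.00045). Cox8a, a small subunit of complex IV, had 695, 678, 773 and 711 CPM against 289 to 590 CPM elsewhere (0.50 ± 0.11, adjusted p = 0.0035). Both were above every other sum, as were 1.54% of all genes. The complex IV subunits Cox7a2 and Cox5b rose by 0.41 ± 0.13 and 0.40 ± 0.14.

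The lowest mitochondrial members of NK cells were mt-Nd4l (-0.71 ± 0.18, edgeR adjusted p = 0.0085), mt-Cytb (-0.65), mt-Nd4 (-0.50) and mt-Co3 (-0.47). With coarser clustering, which merged more cells into the class, 0 of 13 were lower and the median was 0.05. Without 1 library the count was 1 (WT SC or WT IP), 2 (KO IP) or 4 (KO SC). The NK class held 1187 to 2891 CPM of T markers, and 24 to 31 cells in each library except WT IP.

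The macrophage-like class had 14 nuclear members higher and 0 lower, and no mitochondrial member in either direction. Of all genes, 20.8% were higher and 10.9% lower. The SC sums of this class entered the test, although their markers went against its name, as given above. Calls came from complexes I (3 of 36), II (1 of 4), III (3 of 9), IV (5 of 11) and V (2 of 17), and the median of nuclear members was 0.20, against 0.01 over all genes. Uqcr11 had 124, 168, 170 and 176 CPM in WT SC, KO SC, WT IP and KO IP, at a log2 fold change of 0.75 ± 0.13 (edgeR adjusted p = 0.0002), and overlapped NK cells and ASC of IP. Ndufb8 of complex I had 151, 168, 179 and 114 CPM (0.75 ± 0.15, adjusted p = 0.00053). Cox6b1 of complex IV rose by 0.61 ± 0.13 and Ndufs8, an iron-sulfur subunit of complex I, by 0.53 ± 0.19. The count was 4 without KO IP or WT IP, 5 without WT SC and 10 without KO SC, and 13 without the shared barcodes.

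T cells had the fewest members called, with 4 higher and 2 lower, although 11 were higher when cells over 10% mitochondrial UMIs were left out. In this class 16.7% of all genes were higher and 11.7% lower. The complex I subunit Ndufv3 (0.64 ± 0.17, edgeR adjusted p = 0.0078), Atp5md of complex V (0.50 ± 0.14), Cox7a2l (0.48 ± 0.17) and Uqcrh of complex III (0.40 ± 0.14) were higher, and Ndufb8 (-0.43 ± 0.15) and Uqcr11 (-0.59 ± 0.13) lower. Cox7a2l is known as a factor that joins complexes III and IV into supercomplexes. No mitochondrial member was called (median 0.21), but 6 were higher without KO IP. Both lower calls were lost under 7 of the alternative settings.

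Some genes of set interest were also read singly. The c-ring of complex V, through which the protons flow, is encoded by Atp5g1, Atp5g2 and Atp5g3, which give the same mature protein. Atp5g2 was lower in ASC (-0.52 ± 0.14, edgeR adjusted p = 0.0039), at 177 to 235 CPM, and Atp5g3 was lower in B cells (-0.57 ± 0.20, adjusted p = 0.03), at 77.3 to 118 CPM, while Atp5g1 passed in no class. Ndufa4, first assigned to complex I and now known as a subunit of complex IV, was lower in B cells (-0.39 ± 0.15, edgeR adjusted p = 0.05). It is counted with complex I in every count and share by complex given here. Reads of several members can also match copies elsewhere in the genome: 40.8% of the 25-base words of Atp5g2, 27.6% of those of Atp5h and 28.0% of those of Ndufs5 have such a copy, as do 100% of those of mt-Co2, 99.9% of mt-Co3, 99.5% of mt-Atp6, 98.9% of mt-Nd4l, 98.15% of mt-Nd3, 69.7% of mt-Co1 and 62.9% of mt-Nd4. The words were matched to transcripts of other genes. The share of reads affected was not measured, so the uncertainty of these counts is not known.

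The catalytic core of complex I is formed by 14 subunits, 7 of them mitochondrial. Of these 14 genes 6 were higher and 1 lower in B cells, 0 and 4 in NK cells, 1 and 0 in macrophages, 3 and 2 in ASC, and 0 and 0 in T cells. Genes around the complexes were read from lists chosen by function. The shares of all genes called, given above for each class, apply to these lists as well (in ASC 38.1% higher and 25.5% lower), and no count is read as particular to a list. Of 32 assembly factors tested, ASC had 10 higher and 3 lower. Among them, Uqcc2, which helps build complex III, was higher by 1.57 ± 0.15 and Coa3, which helps build complex IV, by 1.16 ± 0.20, whereas the copper chaperones Cox11 and Cox17 of complex IV were lower, at -1.13 ± 0.21 and -1.11 ± 0.17. The other classes had 1 to 4 assembly factors higher and 2 or 3 lower. Of 74 genes of the mitochondrial ribosome ASC had 14 higher and 7 lower, and T cells 1 and 5, B cells 4 and 4, NK cells 3 and 0 and macrophages 5 and 3, beside 16.7% and 11.7% of all genes in T cells, 17.8% and 19.1% in B cells, 13.2% and 9.13% in NK cells and 20.8% and 10.9% in macrophages.

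Of 15 genes that keep and read mitochondrial DNA, B cells had 2 higher and 0 lower, T cells 3 and 0, NK cells 0 and 1, macrophages 0 and 3, and ASC 2 and 4. The shares of all genes were 17.8% and 19.1% in B cells, 16.7% and 11.7% in T cells and 13.2% and 9.13% in NK cells. They were 20.8% and 10.9% in macrophages and 38.1% and 25.5% in ASC, and apply to the next lists too. Tfam, which packages and transcribes mitochondrial DNA, was higher in B cells by 1.58 ± 0.22 (edgeR adjusted p = 2.1e-05), and lower in macrophages (-1.32 ± 0.29) and ASC (-0.56 ± 0.22). Of 8 biogenesis regulators, 2 were higher and 0 lower in B cells, 2 and 2 in ASC, 1 and 0 in NK cells, 0 and 2 in macrophages, and 1 and 2 in T cells, and the transcription factor gene Nrf1 was lower in ASC (-0.62 ± 0.19, adjusted p = 0.0089). Of 8 tested isoforms and partners outside the rule, 4 were higher in macrophages, 3 in NK cells, 3 in ASC, and 1 each in B and T cells. Cytochrome c, the carrier between complexes III and IV, was lower in ASC (-0.84 ± 0.13, adjusted p = 2.2e-05) and B cells (-0.44 ± 0.14), and higher in macrophages (0.67 ± 0.13) and NK cells (0.61 ± 0.14). The proton carrier Ucp2 was higher in macrophages by 2.47 ± 0.21 and lower in ASC (-4.82 ± 0.32).

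To set the genomes against each other, the UMIs of the 13 mitochondrial members were divided by those of the 77 nuclear members, a ratio that does not depend on library scaling. In the order WT SC, KO SC, WT IP and KO IP, B cells had 4.21, 3.86, 4.27 and 3.32 mitochondrial UMIs per nuclear member UMI. T cells had 3.01, 2.93, 2.63 and 2.08, macrophages 2.12, 2.49, 1.51 and 2.07, ASC 2.03, 1.82, 1.86 and 1.80, and NK cells 1.85, 2.06, 1.43 and 1.58. B cells were above every other class in all 4 libraries. T cells came next, although in KO IP their interval (2.03 to 2.13) overlapped that of macrophages (2.02 to 2.13). NK cells, macrophages and ASC changed order between libraries. On the log2 scale the ratio in KO against WT differed by -0.04 in T cells of SC, -0.34 in T cells of IP, -0.12 in B cells of SC, 0.45 in macrophages of IP, and -0.16 and -0.05 in ASC of SC and IP. In IP against SC it differed by -0.19 and -0.50 in T cells of WT and KO, -0.38 in NK cells of WT, and -0.12 and -0.01 in ASC of WT and KO, where only the last interval (-0.04 to 0.02) included 0.

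**Figure D3:**
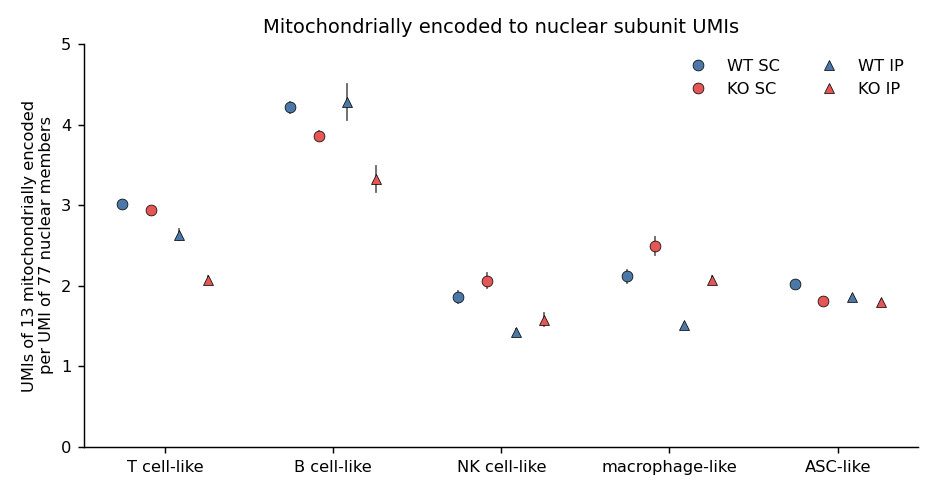
UMIs of the 13 mitochondrial members per UMI of the 77 nuclear members (vertical axis, ratio) for each class, with 1 point per library and 95% counting intervals. B cells lie at 3.32 to 4.27 and NK cells at 1.43 to 2.06.

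Within T cells the ratio differed by cluster. The naive-led clusters had 3.22 to 3.76 in SC, whereas the cluster led by Il17f had 2.64 and 2.61 in WT and KO SC and 2.02 and 1.99 in WT and KO IP. The cluster led by Il17a had 2.44, 2.26, 2.17 and 1.90. These IP values rest on 12 to 35 cells in each library. The cluster led by Tnfrsf4, Ctla4 and Foxp3 had 2.001 and 2.03 in WT and KO SC and was higher in WT IP, at 2.31 (11 cells), and a naive-led cluster had 3.76 in WT SC and 3.31 in WT IP (11 cells). Within B cells, 12 cells of KO SC formed a cluster with 9.72% mitochondrial UMIs and 0.171% nuclear member UMIs, a ratio of 57.0, and 24021 UMIs in all.

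The genotype comparison asks whether respiratory transcripts differ in cells of mice whose deletion was aimed at endothelium. Of the 6 comparisons, macrophages of IP had the largest shift between the genomes. The mitochondrial members took 2.87% of the KO UMIs and 2.39% of the WT UMIs (log2 ratio 0.26, 95% counting interval 0.24 to 0.29), and all 12 with enough UMIs were above 0. The nuclear members took 1.38% and 1.58% (log2 ratio -0.19, -0.22 to -0.16), and 64 of 77 were below 0. Counted past 0.32 on the log2 scale, the fold threshold used for all comparisons of libraries, 5 mitochondrial members were higher, and 21 nuclear members were lower and 0 higher, against 25.5% of all genes higher and 21.8% lower, whose median was 0.02. The ratio of mitochondrial to nuclear members was thus higher in KO by 0.45 (0.41 to 0.50) on the log2 scale.

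The nuclear members lower in KO macrophages came from every complex, with 14 of 36 from complex I, 1 of 4 from II, 2 of 9 from III, 2 of 11 from IV and 2 of 17 from V, and all 11 of complex IV were below 0. Here and below, the highest and lowest members of a complex are named among those with at least 100 UMIs in the libraries compared. Cox5a stood at 207 CPM in KO and 355 CPM in WT (-0.77, -1.06 to -0.50). The lowest of the other complexes were Ndufa10 (-0.73), Uqcrc1 (-0.63), a core protein of complex III, and Atp5o (-0.57), which links the parts of the ATP synthase. Among mitochondrial members, mt-Co1 had 5738 CPM in KO and 4539 CPM in WT (0.34, 0.28 to 0.39), and mt-Nd3 489 and 352 CPM (0.48, 0.28 to 0.67). Haemoglobin, carried by 4 of 8 listed genes in each, was 7187 CPM in WT and 201 CPM in KO, the 12 dissociation-response genes were 6346 and 7416 CPM, and 6 of 49 KO cells and 6 of 131 WT cells had over 10% mitochondrial UMIs. With cells over 10% left out the ratio of the genomes differed by 0.30, and with every cell given the same weight by 0.95. The part of the other values in the result was not tested.

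In ASC of IP both genomes were slightly lower in KO. Mitochondrial members took 2.15% in KO and 2.43% in WT (log2 ratio -0.18, -0.19 to -0.17), and nuclear members 1.19% and 1.31% (-0.13, -0.15 to -0.12), with 65 of 77 below 0, and 16 of 17 in complex V. The median of all genes was 0.05. Only 10 nuclear members were lower past the fold threshold and 0 higher, against 14.1% and 20.4% of all genes. The lowest were Cox5a (86.5 CPM in KO and 119 CPM in WT, -0.46, -0.65 to -0.28), Atp5g1 (-0.46), Ndufa7 (-0.43) and Uqcrc1 (-0.42), and Sdhb, the iron-sulfur subunit of complex II, was at -0.38. The highest were Ndufa6 (0.25), Atp5md (0.20), Cox6a1 (0.18) and Uqcr11 (0.12). Mesothelial markers were 141 CPM in WT and 248 CPM in KO and SMC markers 253 and 94.1 CPM, and their part was not tested.

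In ASC of SC only the mitochondrial members were lower in sum. They took 1.78% in KO and 2.001% in WT (-0.17, -0.19 to -0.14), whereas nuclear members took 0.983% and 0.988% (-0.01, -0.04 to 0.02), with 7 higher and 3 lower past the fold threshold (16.1% and 20.1% of all genes). Ndufa1 (0.50), Uqcr11 (0.37), Atp5md (0.36) and Cox6c (0.33) were the highest of their complexes and Ndufa7 (-0.49), Uqcrc2 (-0.22), Atp5d (-0.20) and Cox5b (-0.10) the lowest. By cluster of SC, mitochondrial members took 2.09% in KO (25 cells) and 2.56% in WT (21 cells) in the cluster shared with IP. They took 1.66% (73 cells) and 1.72% (46 cells) in the cluster without IP cells. The mitochondrial transcripts did not shift as a block in either depot. In KO against WT, mt-Co1 was at 0.05 in SC and 0.03 in IP, with intervals that reached 0, whereas mt-Nd1 was at -0.22 and -0.24, mt-Co2 at -0.23 and -0.31, mt-Co3 at -0.26 and -0.23 and mt-Cytb at -0.35 and -0.26. These transcripts belong to complexes I, III and IV, and the SC and IP values come from separate pairs of libraries.

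In T cells of SC, complex II was lower in KO with all 4 members. Sdha stood at 67.6 CPM in KO and 85.7 CPM in WT (-0.34), Sdhb at 56.8 and 78.4 CPM (-0.46), Sdhc at 19.5 and 26.8 CPM (-0.46) and Sdhd at 33.6 and 46.9 CPM (-0.48), and their sum at -0.42 (-0.54 to -0.31). The complex II sum had an interval that included 0 in every other comparison of KO against WT. It was at 0.04 (-0.32 to 0.40) in T cells of IP and 0.05 (-0.14 to 0.25) in B cells of SC. In T cells of SC, all genes had a median of -0.13. Nuclear members as a whole were at -0.08, with 2 higher and 22 lower past the fold threshold (8.45% and 28.2% of all genes), and mitochondrial members at -0.12. Both sums changed sign when libraries were scaled by the median of ratios. Atp5md was the highest, at 336 CPM in KO and 186 CPM in WT (0.85, 0.74 to 0.97), and Ndufs8 the lowest, at 30.9 and 51.6 CPM (-0.74). Uqcrh (0.11), Cox7c (0.19) and Ndufb2 (0.35) were the highest of their complexes, and Cyc1 (-0.41), Cox5b (-0.35) and Atp5f1 (-0.46) the lowest. The Hspa1a-led T cluster held 77 cells of WT SC and 7 of KO SC.

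In T cells of IP, mitochondrial members took 2.69% in KO and 3.43% in WT (-0.35, -0.38 to -0.32), with 8 of 12 lower past the fold threshold, and nuclear members were at 0.00 (-0.05 to 0.04), with 8 higher and 9 lower of 71 (31.9% and 15.4% of all genes). Cox7a2l had 243 CPM in KO and 403 CPM in WT (-0.73), and Cox6a1 206 and 132 CPM (0.63). Ndufa1 (0.59), Uqcrq (0.24) and Atp5k (0.40) were the highest of the other complexes and Ndufa7 (-0.45), Uqcrh (-0.17) and Atp5g2 (-0.43) the lowest. The ratio of the genomes was lower in KO by -0.34, but it turned to 0.12 with no mitochondrial limit, 0.04 with a limit of 10% and 0.02 with doublets kept, and over all settings the class held 57 to 117 cells of WT and 88 to 134 of KO. Mast cell markers were 1230 CPM in WT and 27.5 CPM in KO, with 4 and 2 of 4 detected, and markers of type 2 innate lymphoid cells 1085 and 2073 CPM, with 5 of 6 in each, and their part was not tested.

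In B cells of SC, mitochondrial members were at -0.04 (-0.06 to -0.03) in KO against WT and nuclear members at 0.08 (0.05 to 0.11), but the mitochondrial sum turned to 0.04 when libraries were scaled by the median of ratios. The sum of the 12 dissociation-response genes was 3941 CPM in KO, below the 6100 CPM of WT, and their part was not tested. There were 13 nuclear members higher and 3 lower past the fold threshold, against 9.38% and 22.6% of all genes. Ndufb2 (0.81), Atp5e (0.45), Cyc1 (0.43) and Cox6c (0.37) were the highest, and Ndufs8 (-0.40), Uqcrc2 (-0.34), Cox5b (-0.21) and Atp5b (-0.21) the lowest. For Sdha the log2 ratio was 0.39, against -0.34 in T cells of the same libraries. Of the B clusters, 1 held 88 cells of WT SC and 20 of KO SC.

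**Figure D4:**
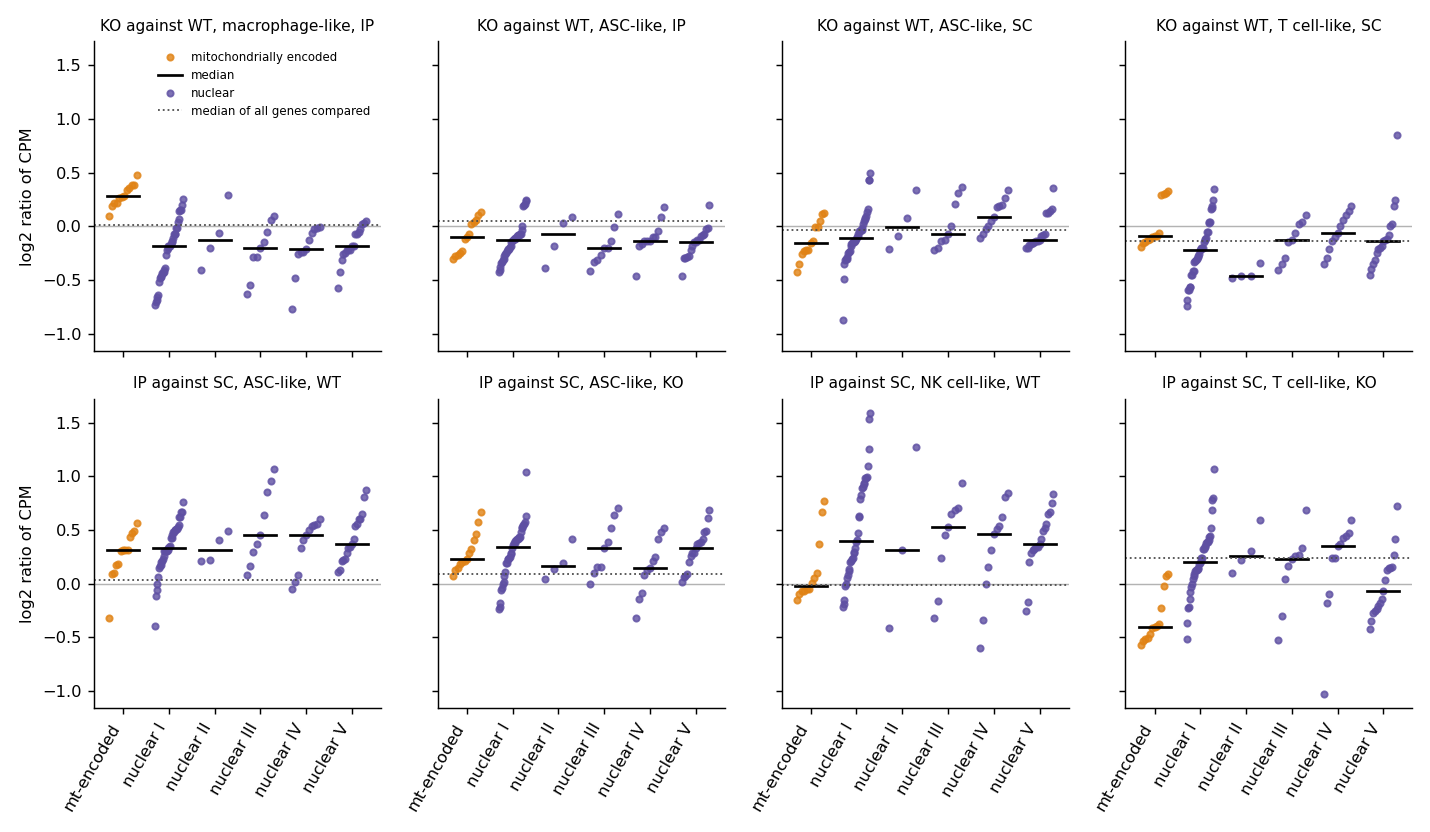
Log2 ratio of CPM for each member (vertical axis, log2), with mitochondrial members together and nuclear members by complex on the horizontal axis, bars at their medians and a dotted line at the median of all genes, in 4 comparisons of KO against WT and 4 of IP against SC; there is 1 library per group and no test. In macrophages of IP, mitochondrial members lie above 0 (sum 0.26) and nuclear members mostly below (sum -0.19), and in ASC both lie mostly above 0 in IP against SC.

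Members near the targeted locus were read in their own right, since Tert lies at chr13:73626911-73649843 (GRCm38). Relative to it, Ndufs6 lies at -0.307 Mb, Sdha at 0.695 Mb and Uqcrb at -6.73 Mb. KO against WT log2 ratios of Ndufs6 were -0.25 in T cells of SC, -0.30 in T cells of IP, 0.61 in B cells of SC, -0.07 in macrophages, and -0.10 and -0.12 in ASC of SC and IP. Uqcrb lay between -0.20 and 0.26 and Sdha between -0.41 and 0.39. None of the 3 had a common direction over the 6 comparisons.

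Between depots, nuclear members were higher in IP in ASC of both genotypes and in NK cells of WT. In WT ASC, nuclear members took 1.31% of UMIs in IP and 0.988% in SC, a log2 ratio of 0.40 (0.38 to 0.43), with 72 of 77 above 0 and 46 higher and 1 lower past the fold threshold (30.2% and 26.4% of all genes). In KO ASC they took 1.19% and 0.983% (0.28, 0.25 to 0.30), with 67 of 77 above 0 and 37 higher and 0 lower (32.7% and 23.1%). The medians of all genes were 0.04 and 0.09. The log2 ratio of the mitochondrial members was 0.28 for WT and 0.27 for KO. All 17 nuclear members of complex V were above 0 in both genotypes, and in WT complex III was highest, at 0.54 (0.46 to 0.62).

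The largest single values in WT ASC were those of Uqcrc1, at 58.4 CPM in IP and 27.6 CPM in SC (1.07, 0.64 to 1.55), Atp5g1 (0.87), Ndufb2 (0.76) and Cox6c (0.60), and the lowest Ndufs1 (-0.39), whose interval included 0. In KO ASC they were Ndufs8, at 37.3 and 17.8 CPM (1.04, 0.48 to 1.69), Uqcr11 (0.70), Atp5e (0.69) and Cox7c (0.52), with Cox7a2l (-0.32) and Ndufa6 (-0.24) lowest. Within the cluster that both depots shared, nuclear members took 1.03% and 1.05% of UMIs in WT and KO SC and 1.31% and 1.19% in IP, and mitochondrial members 2.56% and 2.09% against 2.43% and 2.15%. The nuclear share was thus higher in IP inside that cluster too, whereas the mitochondrial share was not higher there in WT. The SC cluster with no IP cells had 1.72% and 1.66% mitochondrial UMIs.

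In WT NK cells, nuclear members took 1.80% in IP and 1.43% in SC (0.33, 0.28 to 0.38), with 44 higher and 4 lower of 74 (28.3% and 26.9% of all genes), whereas mitochondrial members were at -0.05. Ndufa12 of complex I had 142 CPM in IP and 45.6 CPM in SC (1.59, 0.79 to 2.64). Uqcr11 (0.93), Cox7c (0.85) and Atp5mpl (0.84) were the highest of the other complexes, and Cox7a2l (-0.60), Uqcrfs1 (-0.32), Atp5h (-0.25) and Ndufs4 (-0.22) the lowest. The NK cells of SC numbered 31.

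In T cells the mitochondrial members were lower in IP, at -0.18 in WT and -0.40 in KO, with 9 of 13 lower past the fold threshold in KO. The nuclear members were at 0.02 in WT, with 14 higher and 14 lower (25.6% and 25.6% of all genes), and at 0.10 in KO, with 24 higher and 6 lower (44.5% and 19.6%), where all genes had a median of 0.24. The nuclear sum in KO turned to -0.11 when libraries were scaled by the median of ratios. Ndufs5 had 110 CPM in IP and 52.7 CPM in SC of KO (1.07), and Cox7a2l 243 and 496 CPM (-1.03). In WT, Ndufv3 (0.62) and Atp5md (0.45) were high and Cyc1 (-1.10) and Ndufv2 (-1.02) low. The depots differ in which T clusters they hold, as given above, and the part of this in the result was not tested.

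The shortest mitochondrial transcripts were read separately, in a grouping chosen after their values were seen. These are mt-Atp8 (204 bases) of complex V and mt-Nd3 (348) and mt-Nd4l (297) of complex I. Nearly all 25-base words of mt-Nd3 and mt-Nd4l have a copy elsewhere in the genome, as given above, and 11.7% of those of mt-Atp8. Their summed share of the mitochondrial members' UMIs was 1.94% in T cells of WT SC and 2.62, 2.69 and 2.78% in KO SC, WT IP and KO IP. In B cells it was 1.84, 2.59, 2.43 and 3.05%, in macrophages 1.79, 2.85, 2.65 and 2.96%, in NK cells 2.13, 2.14, 3.15 and 3.25%, and in ASC 2.90, 3.28, 3.32 and 3.71%. WT SC was the lowest in every class, and in 14 of 15 pairs of class and transcript, the exception being mt-Nd4l in NK cells. In KO against WT T cells of SC, mt-Atp8, mt-Nd3 and mt-Nd4l were at 0.29, 0.31 and 0.33, whereas mt-Co1 was at -0.15. A difference that repeats over all classes of a library cannot be told apart from a difference between libraries.

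**Figure D5:**
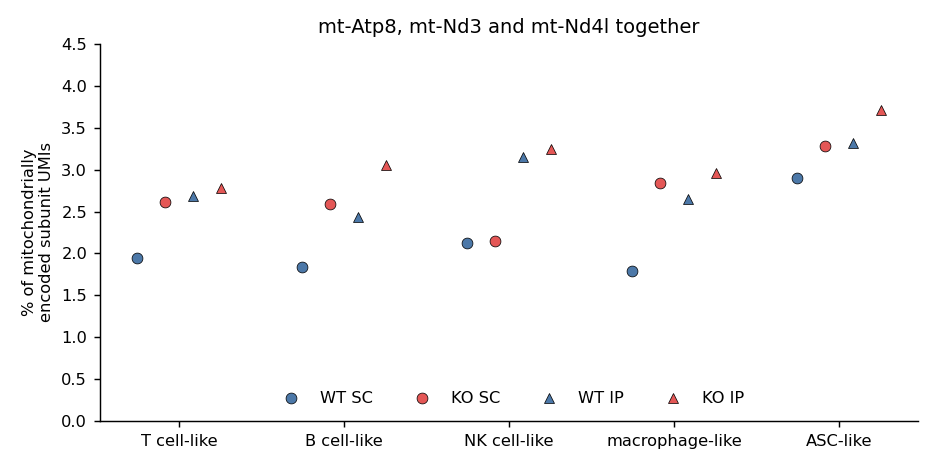
Summed share of mt-Atp8, mt-Nd3 and mt-Nd4l in the UMIs of the 13 mitochondrial members (vertical axis, percent), for each class and library. WT SC is lowest in all 5 classes, from 1.79% in macrophages to 2.90% in ASC.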

How the data were processed

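The authors loaded 10x Genomics Chromium 3' v3 libraries, and the deposited values are raw UMI counts for each gene in each barcode. Per the file headers they come from Cell Ranger 7.0.0. The submitters' processing notes also name STAR 2.6 and mm10. The use of intronic reads and the cell-calling rule were not given in the sources used here. Barcodes were kept from 200 genes upward and up to 25% mitochondrial UMIs, and Scrublet in scanpy 1.11.5 marked 0.556% of them as doublets, which were removed. The 4 libraries were clustered together without the 90 members (2000 variable genes, 30 principal components, 15 neighbours, Leiden resolution 1), giving 23 clusters, which took a class from marker lists. Marker lists of type 2 innate lymphoid cells and monocytes were left out of the naming after the data were seen. Summed counts were tested in edgeR 4.0.16 (R 4.3.3), with DESeq2 1.42.0 as an alternative, after a check on simulated data. A class against the mean of the others shares libraries with every other such comparison, and no cultures or mice are named as separate. With the library as a block, the p-values measure how far class differences vary across these 4 libraries. The libraries differ in genotype or depot and are not replicates of each other. Ratios between libraries added 0.5 UMI, needed at least 30 cells in each library and 50 UMIs in both together, and carry exact conditional binomial 95% intervals; those of the genome ratio used the delta method. Named genes were all 13 mitochondrial members and the 4 Sdh genes, the 4 highest and lowest called per class, the extremes per complex with at least 100 UMIs, members within 10 Mb of Tert, the c-ring genes, Ndufa4 and Cox7a2l. The members, lists and tests were chosen with earlier results of these data known. Coordinates were taken from the GENCODE annotation of GRCm38 by gene identifier.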

Additional observations from a re-analysis of the deposited data

Results flagged for a closer look

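In IP against SC, the mitochondrial members moved in opposite directions in pairs of classes of the same libraries. In KO, ASC stood at 0.27 and T cells at -0.40 on the log2 scale, a difference of 0.67. In WT, ASC stood at 0.28, NK cells at -0.05 and T cells at -0.18, so that ASC differed from NK cells by 0.33 and from T cells by 0.46.

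In KO against WT of IP, macrophages differed from the other classes. Their mitochondrial members stood at 0.26, against -0.18 in ASC and -0.35 in T cells, differences of -0.44 and -0.61 from macrophages. Their ratio of mitochondrial to nuclear members stood at 0.45, against -0.05 in ASC and -0.34 in T cells, differences of -0.50 and -0.80. In T cells this ratio turned to 0.12 with no mitochondrial limit, 0.0391 with a 10% limit and 0.0214 with doublets kept, and in ASC to 0.0248 with cells weighted equally.

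In KO against WT of SC, the nuclear members stood at 0.08 in B cells and -0.08 in T cells, a difference of 0.16. The sum of T cells turned to 0.0440 under median-of-ratios scaling.

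These pairs were picked because the sums lay on opposite sides of 0 with 1 library per group, and none of the differences was tested.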

How the results depend on the processing

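No paired analysis was possible because the groups compared share fewer than 2 replicate numbers, with 1 library each. An additive fit of genotype with depot as a block was not run. Where a class fell under 20 cells in a library, the same 5 classes were kept. The counts of members called changed as follows. T cells: higher 2 with DESeq2 size factors, 7 with no mitochondrial limit and 11 with a 10% limit; lower 6 with DESeq2 and 0 with no low-count filter, no mitochondrial limit, a 10% limit, at least 500 genes, doublets kept, and resolutions 0.5 and 2. B cells: lower 42 with DESeq2, 14 with no low-count filter and 40 with no mitochondrial limit. NK cells: higher 9 with DESeq2, 1 with no low-count filter, and 2 with no mitochondrial limit, a 10% limit and 500 genes; lower 4 at resolution 0.5. Macrophages: higher 3 with no low-count filter, and lower 1 with DESeq2 and with a 10% limit. ASC: lower 26 at resolution 0.5. With 1 library left out, the ranges were T 2 to 11 higher and 0 to 1 lower, B 10 to 10 and 9 to 19, NK 1 to 4 and 1 to 4, macrophage 4 to 10 and 0 to 0, and ASC 7 to 15 and 13 to 20.

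The log2 change of the ratio of mitochondrial to nuclear members, in KO against WT, was in T cells of SC -0.0052 with a 10% limit and -0.18 with cells weighted equally. In T cells of IP it reversed to 0.12 with no mitochondrial limit, 0.0391 with a 10% limit and 0.0214 with doublets kept, and was -0.23 with 500 genes, -0.18 at resolution 0.5 and -0.23 at resolution 2. In B cells of SC it was -0.0544 with 500 genes and -0.0379 with equal weights, in macrophages of IP 0.30 with a 10% limit and 0.95 with equal weights, in ASC of SC -0.21 with no limit and -0.0536 with equal weights, and in ASC of IP -0.0703 with a 10% limit and 0.0248, reversed, with equal weights. In IP against SC, T cells of WT gave -0.66 with no limit, -0.52 with a 10% limit, -0.50 with 500 genes, -0.57 with doublets kept, -0.56 and -0.48 at resolutions 0.5 and 2, and -0.31 with equal weights. T cells of KO gave -0.68 with 500 genes and -0.70 and -0.66 at resolutions 0.5 and 2. NK cells of WT gave -0.26 with no limit, -0.29 with a 10% limit, -0.24 with 500 genes, -0.19 with doublets kept, -0.57 and -0.19 at resolutions 0.5 and 2, and -0.20 with equal weights. ASC of WT gave -0.0641 with a 10% limit and -0.20 with equal weights, and ASC of KO 0.0350 with no limit, 0.0384 with 500 genes, 0.0302 at resolution 2 and -0.12 with equal weights.

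Under median-of-ratios scaling the sums of T cells of SC, KO against WT, reversed to 0.0066 for mitochondrial and 0.0440 for nuclear members, that of nuclear members in T cells of KO, IP against SC, to -0.11, and that of mitochondrial members in B cells of SC to 0.0427. The cause of these changes was not tested. Leaving out the shared barcodes, an alternative added after the data were seen, was applied to the class test and the genome ratio only. It reversed no genome ratio. Classes of 22 to 31 cells limit the precision of B, NK and SC macrophage values.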
